A study of Mus musculus with 2 samples.

Results

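MicroRNA hairpins that lie inside genes of energy and lipid metabolism were followed in the embryonic mouse heart: the 3 hairpins Mir107, Mir103-2 and Mir103-1 in introns of pantothenate kinase genes, Mir33 in an intron of Srebf2, and the hairpin of miR-378a in an intron of Ppargc1b. They make up 5 of the 1973 gene rows in the tables. They were chosen by host gene and by levels already seen in these libraries, so their levels are descriptions and carry no test. Mir378a itself had no row in the tables, and its locus was read through Gm25301, a gene annotated over the same stretch on the opposite strand, by the counts on the strand opposite to Gm25301. MicroRNA-sized RNA (below 30 bases, per the labels) came from whole heart of B6NCrl mouse embryos at day 12.5, with both sexes pooled. There were 2 biological replicates in 1 group, with 1 library each, and no treatment or altered gene is named, so there was no contrast between conditions. The labels give both replicates the same donor identifier and separate biosamples, and do not say whether the embryos came from separate litters. Differences between the 2 libraries may therefore be partly technical.

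A microRNA is cut from a hairpin in a longer transcript, loaded into an Argonaute protein as a strand of about the size sequenced here, and pairs with messenger RNAs mainly through its seed, bases 2 to 8 from its 5′ end. Many hairpins lie in introns and are made from the host gene's transcript. Pantothenate kinases, the hosts of mir-103 and mir-107, carry out the rate-limiting step of coenzyme A synthesis, and miR-103 and miR-107 are known as regulators of insulin sensitivity. Srebf2 encodes a transcription factor that drives cholesterol synthesis and uptake, and miR-33 represses the cholesterol exporter Abca1. Ppargc1b encodes PGC-1β, a coactivator of mitochondrial and fatty acid oxidation genes, and miR-378a is known from heart and skeletal muscle.

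The mature sequences show which of these genes short reads can tell apart. They are taken from RefSeq on GRCm38.p6, written 5′ to 3′ with the seed in capitals. All 4 hairpins printed below were found in that table.
miR-107-3p: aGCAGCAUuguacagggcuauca
miR-103-3p (the same from Mir103-1 and Mir103-2): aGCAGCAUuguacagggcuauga
miR-107-5p: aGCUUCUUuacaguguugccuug
miR-103-2-5p: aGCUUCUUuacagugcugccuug
miR-103-1-5p: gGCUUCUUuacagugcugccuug
miR-33-5p: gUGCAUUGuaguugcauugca
miR-33-3p: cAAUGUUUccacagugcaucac
Both strands of mir-103 and mir-107 shared their seeds. Among the 1738 mature entries of the RefSeq table, the seed of miR-107-3p occurred in 3, those of Mir103-1, Mir103-2 and Mir107. Each seed of miR-33 occurred in 1 entry, its own. Counted from 1 at the 5′ end, with the base of mir-103 first, miR-103-3p and miR-107-3p differed by G22C alone. On the other arm, miR-103-2-5p and miR-107-5p differed by C16U, miR-103-1-5p and miR-103-2-5p by G1A, and miR-103-1-5p and miR-107-5p by G1A and C16U.

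The hairpins, with both mature strands in capitals, show how far the identity runs past the mature ends.
Mir107: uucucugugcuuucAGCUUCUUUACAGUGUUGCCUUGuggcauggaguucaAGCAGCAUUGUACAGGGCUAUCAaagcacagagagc
Mir103-2: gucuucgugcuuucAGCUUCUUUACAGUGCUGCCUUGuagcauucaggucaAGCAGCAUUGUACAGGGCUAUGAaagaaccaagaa
Mir103-1: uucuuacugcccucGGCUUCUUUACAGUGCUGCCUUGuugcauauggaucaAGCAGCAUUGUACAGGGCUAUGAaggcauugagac
Mir33: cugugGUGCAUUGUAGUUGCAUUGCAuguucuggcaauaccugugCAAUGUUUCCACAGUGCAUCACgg
From the start of the 3p strand, Mir103-1 and Mir103-2 were identical over 24 bases, so a read starting there had to reach 25 bases to tell them apart. A read from the same start had to reach 22 bases to tell either of them from Mir107. On the 5p arm, Mir103-1 differed from the other 2 genes at the first base, and Mir103-2 and Mir107 parted at base 16. Aligned without gaps at the 3p start, 69 of 86 bases (80.2%) were identical between Mir103-1 and Mir103-2, 69 of 86 between Mir103-1 and Mir107, and 73 of 86 (84.9%) between Mir103-2 and Mir107. The longest run shared by Mir103-1 and Mir103-2 was 27 bases, against 24 bases for Mir107 with each of them.

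Windows of each hairpin were also searched on both strands in the GENCODE M21 transcripts of other loci. Of the 22-base windows, 48 of 48 of Mir33, 44 of 45 of Mir378a, 61 of 66 of Mir107, 57 of 65 of Mir103-1 and 55 of 65 of Mir103-2 were found nowhere else. At 26 bases every window of Mir33, Mir378a and Mir107 was found at its own locus alone, and 59 of 61 windows of each mir-103 hairpin. These counts cover annotated transcripts and not the rest of the genome, and a window counts the same whether or not it is a mature strand. A read fitting several places was added to no gene, so each level below is that of the reads that fit 1 place. Reads set aside for that reason were 2503492 in replicate 1 and 2677232 in replicate 2, where the 2 mir-103 genes together had 195 and 326 counts. How many of the reads set aside were miR-103 is not recorded in the tables.

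**Figure D1:**
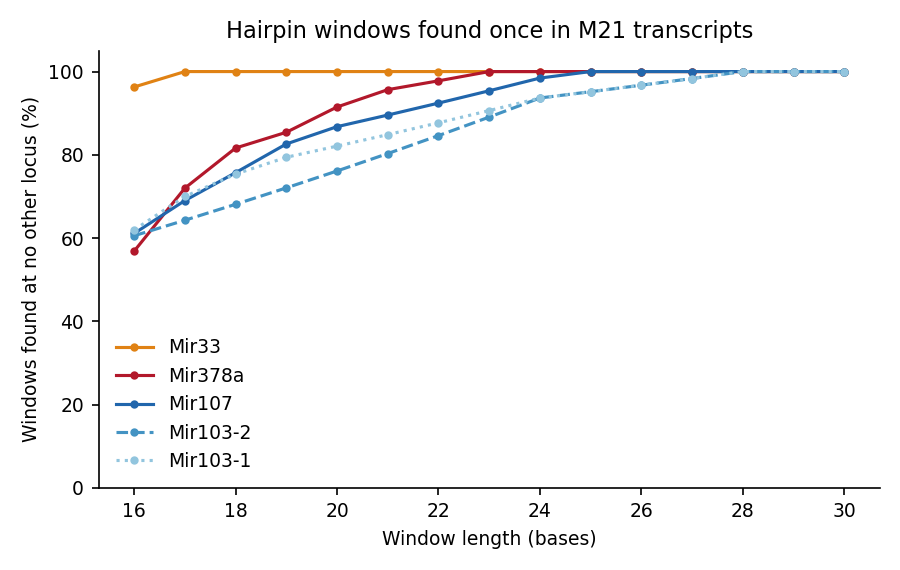
The percentage of windows of each hairpin (y axis) that was found at no other locus among M21 transcripts is plotted against window length in bases (x axis, 16 to 30). Mir33 lies highest and the 2 mir-103 hairpins rise last, reaching 84.6% and 87.7% at 22 bases.

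The 3 pantothenate kinase hairpins sit at matching places in their hosts. On GRCm38 with GENCODE M21, the minus strand of Pank1 carries Mir107 (ENSMUSG00000065594.1) at chr19:34820687-34820773. The plus strand of Pank2 carries Mir103-2 (ENSMUSG00000065563.1) at chr2:131288052-131288137, and that of Pank3 carries Mir103-1 (ENSMUSG00000065553.1) at chr11:35782396-35782481. Each is transcribed in its host's direction and lies in intron 5 of 6 of the protein-coding host transcript with the most exons, 326, 454 and 688 bases from the start of that intron. No microRNA gene is annotated in the paralogue Pank4.

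Mir33 (ENSMUSG00000065465.1) is annotated at chr15:82198122-82198190, plus strand, in intron 17 of 20 of the Srebf2 transcript with the most exons and in its direction. The paralogue Srebf1 holds Mir6921 and Mir6922, and both had 0 counts in both libraries and on both strands. Gm25301 (ENSMUSG00000093026.1) covers 113 bases at chr18:61397813-61397925, plus strand. Mir378a (ENSMUSG00000105200.1) is annotated inside it at chr18:61397835-61397900 on the minus strand, the strand of its host Ppargc1b, in intron 1 of 12. The paralogue Ppargc1a holds no annotated microRNA gene.

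The libraries held 9235580 and 10601121 reads, of which 4478599 and 5279908 were sense counts, on the strand a gene is annotated on. Levels are in CPM, a gene's count scaled to 1000000 sense counts of its library. For Gm25301 the count is antisense and is not itself part of that denominator. Of 1973 genes, 713 had a count (Gm25301 by its antisense counts), 285 (14.4%) reached 10 CPM in both libraries, and 78 reached 1000 CPM. Where no read was counted, a true level of up to 0.670 CPM (replicate 1) or 0.568 CPM (replicate 2) could have been missed. Such limits, and all intervals given, hold counting error only. No molecular identifiers are stated, so that error is of reads and not of original molecules. The heart muscle microRNAs Mir208a, Mir208b and Mir499 took 6.29% ± 0.144 (SD, n = 2) of the counts, and all 3 reached 10 CPM in both libraries. Of the other marker lists, erythroid genes took 0.142%, epithelial genes 0.0731%, white blood cell genes 0.0324% and liver genes 0.0236%. Of the 5 neural markers in the tables, 0 reached 10 CPM, and Mir124a-2, Mir124a-3 and Mir9-2 had 0 counts in both libraries. These are numbered copies, and any read that copies share fits several places and was added to no gene. Their sequences were not compared here, and their low counts do not show that neural cells were absent. The same limit holds for Mir194-1 and Mir194-2 of the liver list.

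The mir-378a locus carried most of the reads of the 5 genes. Opposite to Gm25301 stood 150787 counts in replicate 1 and 155088 in replicate 2, that is 33668 and 29373 CPM, or 31521 ± 3037 CPM (SD, n = 2). On the strand of Gm25301 itself there were 0 counts in either library, so every read counted at this locus ran in the direction of Mir378a and Ppargc1b. Placed among the sense levels of all genes, this level took rank 7 in replicate 1 and rank 9 in replicate 2. It made up 93.5% ± 0.449 (SD, n = 2) of the counts of the 5 genes together. It was also the highest of the 67 genes with any antisense count, at 68.6% ± 1.16 (SD, n = 2) of all antisense counts, and the second, Gm24321, stood at 4256 CPM. Of these 67 genes, 6 reached 1000 antisense CPM in both libraries, Gm25301 among them. Every other gene was ranked by sense counts alone, here and below. The 2 levels nearest to that of Gm25301 over both libraries were those of Mir26b (30050 ± 1131 CPM, distance 0.126 on the log2(CPM + 1) scale) and Mir21a (28206 ± 209 CPM, distance 0.256). With 2 libraries, a near level says only that the genes stood at a like height.

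The other annotated mir-378 genes were low. Mir378d had 365 and 410 counts (79.6 ± 2.72 CPM), Mir378c had 190 and 166 counts (36.9 ± 7.77 CPM), and Mir378b had 26 and 21 counts (4.89 ± 1.29 CPM). Their 22-base windows were all found at their own locus alone among M21 transcripts, 71 for Mir378b, 78 for Mir378c and 89 for Mir378d. At 20 bases this held for 73 of 73, 79 of 80 and 91 of 91 windows, and for 43 of 47 of Mir378a. Shorter reads of Mir378a and Mir378c could thus fit several places and be added to no gene. The counts opposite to Gm25301 exceeded those of these 3 genes summed by a ratio of 260 ± 0.176 (SD, n = 2), with 259.5 in replicate 1 and 259.8 in replicate 2. The mir-378a locus was thus the highest of the 4 in both libraries, and the order of the 3 others was also the same in both.

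Mir107 was the only one of the 3 pantothenate kinase hairpins with a high count. It had 9526 counts in replicate 1 and 10752 in replicate 2, at 2127 and 2036 CPM, or 2082 ± 64.1 CPM (SD, n = 2), with ranks 57 and 63. The nearest levels were those of Mir499, the heart muscle microRNA of the Myh7b intron, at 2138 ± 34.1 CPM (distance 0.087) and of Mir188 at 2139 ± 45.5 CPM (distance 0.0933). Mir107 lay below the mir-378a locus by a ratio of 15.1 ± 0.993 (SD, n = 2), many times the spread between replicates.

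Mir103-2 had 181 and 307 counts, at 40.4 and 58.1 CPM, or 49.3 ± 12.5 CPM (SD, n = 2), with ranks 232 and 207. Mir103-1 had 14 and 19 counts, at 3.13 and 3.60 CPM, or 3.36 ± 0.334 CPM (SD, n = 2), with ranks 341 and 334. Mir103-1 was thus the only one of the 5 under 10 CPM, and 4 of the 5 genes reached 10 CPM in both libraries. Its 95% exact binomial interval ran from 1.71 to 5.24 CPM in replicate 1 and from 2.17 to 5.62 CPM in replicate 2, the widest of the 5 relative to its level. The 2 mir-103 genes stood apart from each other by a ratio of 12.9 in replicate 1 and 16.2 in replicate 2, or 14.5 ± 2.28 (SD, n = 2), although they give the same 3p strand. Mir107 exceeded Mir103-2 by a ratio of 52.6 and 35.0, or 43.8 ± 12.5 (SD, n = 2), and Mir103-1 by a ratio of 623 ± 81.0 (SD, n = 2). Of the counts of the 3 genes together, Mir107 held 97.5% ± 0.662 (SD, n = 2). These ratios compare reads that fit 1 place. They are not ratios of miR-107 to miR-103, because a 23-base miR-103-3p read fits both mir-103 genes and was counted to neither, and the tables do not separate the arms.

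**Figure D2:**
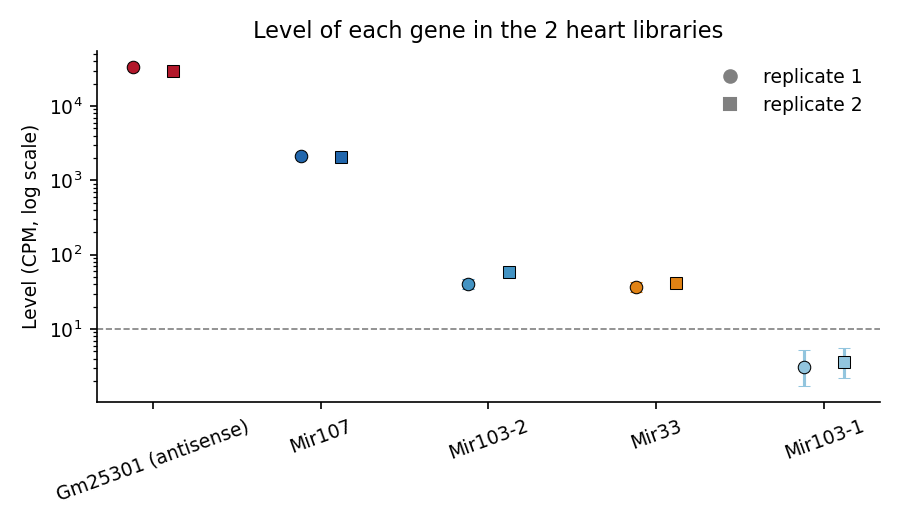
The level of each gene in CPM (y axis, log scale) is shown in replicate 1 (circles) and replicate 2 (squares), with 95% exact binomial intervals for counting error and a dashed line at 10 CPM. Gm25301 by antisense counts lies highest at 33668 and 29373 CPM, Mir107 is next at 2127 and 2036 CPM, and Mir103-1 alone lies below the line. At high counts the intervals are smaller than the points.

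Mir33 had 167 counts in replicate 1 and 218 in replicate 2, at 37.3 and 41.3 CPM, or 39.3 ± 2.83 CPM (SD, n = 2), with ranks 234 and 231. Its 22-base windows were all found at no other locus, unlike those of the mir-103 genes. Mir107 exceeded it by a ratio of 53.2 ± 5.46 (SD, n = 2), and it exceeded Mir103-1 by a ratio of 11.7 ± 0.322 (SD, n = 2). Mir103-2 and Mir33 were neighbours in the order, with a ratio of 1.25 ± 0.229 (SD, n = 2), and their means lay closer together than the spread of Mir103-2 between replicates. All other neighbours in the order, the mir-378a locus above Mir107, Mir107 above Mir103-2 and Mir33 above Mir103-1, were apart by more than that spread in both libraries. The nearest levels to Mir33 were Mir194-1 (37.2 ± 7.13 CPM, distance 0.21) and Mir666 (44.0 ± 3.15 CPM, distance 0.225). Those nearest to Mir103-2 were Mir668 (45.7 ± 12.8 CPM, distance 0.163) and Mir199a-2 (45.7 ± 13.5 CPM, distance 0.171), and those nearest to Mir103-1 were Mir3076 and Gm23450, at 3.16 and 3.28 CPM.

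**Figure D3:**
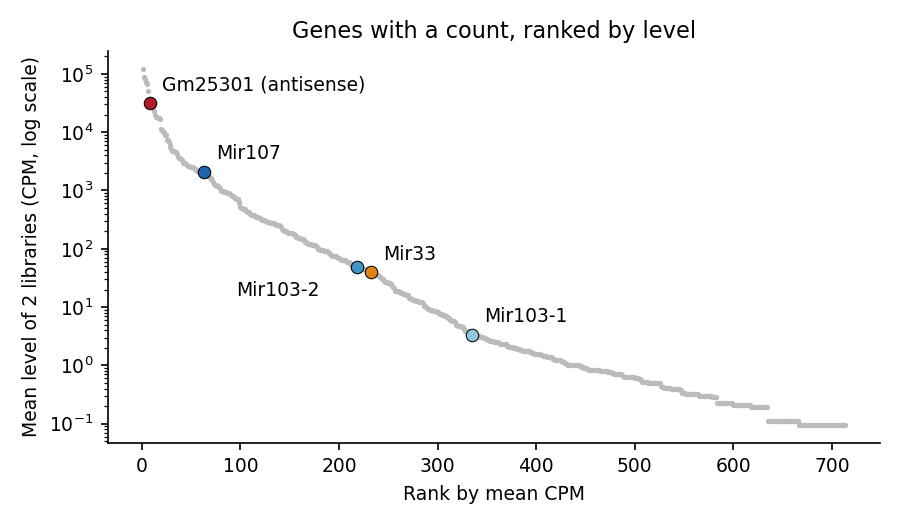
The mean level of the 2 libraries in CPM (y axis, log scale) is plotted against rank (x axis) for the 713 genes with a count, grey points, with the 5 genes coloured. They run from rank 8 for Gm25301 by antisense counts through rank 63 for Mir107 and ranks 218 and 232 for Mir103-2 and Mir33 to rank 335 for Mir103-1.

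All 4 genes read by sense counts lie in introns in the direction of their host. Of the 720 genes of that position class in M21, 117 (16.2%) reached 10 CPM in both libraries, against 74 of 343 genes (21.6%) over an exon of their strand and 94 of 831 (11.3%) outside genes of their strand. The median level of genes with a count was 1.34 CPM in introns, 2.52 CPM over exons and 27.0 CPM outside genes of their strand. Mir107, Mir103-2 and Mir33 lay above both the intronic median and 10 CPM, and Mir103-1 above the intronic median but not 10 CPM. Classes follow a gene's own strand. Gm25301 was therefore not classed as lying in Ppargc1b, although it entered with its antisense counts. The members were chosen with their levels known, so this places them and does not test them.

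The mir-103 copies were set beside the hairpins of 2 other duplicated families. The mir-26 hairpins lie in introns of Ctdsp genes and the mir-199 hairpins on the strand opposite to dynamin genes, and with mir-103 and mir-107 they make a list of 9 genes. Mir26a-1 and Mir26a-2 give the same 5p strand and were identical over 25 bases from its start. They stood at 5.79 ± 0.922 and 21.8 ± 1.96 CPM (SD, n = 2), while Mir26b, which differs from them in 2 bases of that strand, stood at 30050 ± 1131 CPM. Mir199a-1 and Mir199a-2 give the same strand on both arms and stood at 3.23 ± 0.784 and 45.7 ± 13.5 CPM, while Mir199b, which shares the 3p strand, stood at 509.5 ± 2.85 CPM. The ratio of Mir199a-2 to Mir199a-1, 14.1 ± 0.778 (SD, n = 2), lay within the spread of the ratio of Mir103-2 to Mir103-1. In all 3 families the 2 genes that share a name, numbered 1 and 2, stood lowest in both libraries. Mir199b stood higher. It is identical to Mir199a-1 over 25 bases from the 3p start, and its 5p strand was not compared with theirs. Whether reads set aside for fitting several places bear on these levels was not tested. Of the 9 genes in this list, 6 reached 10 CPM in both libraries, and the median log2 ratio of replicate 2 over replicate 1 among them was −0.03.

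The superfamily named after mir-15, mir-103 and mir-107 is known for regulation of the cell cycle and of metabolism, and most of its other genes carry the seed of mir-107 moved by 1 base. Of these, 3 mature strands are shown because bases 2 to 8, in capitals, are bases 1 to 7 of the 3p strands of mir-103 and mir-107 printed above.
miR-15a-5p: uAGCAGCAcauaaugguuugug
miR-16-5p: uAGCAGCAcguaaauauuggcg
miR-322-5p: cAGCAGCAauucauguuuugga
This seed occurred in 11 of the 1738 mature entries, and the 10 of those genes with a row took 8.77% ± 0.816 (SD, n = 2) of the counts, against 0.213% ± 0.00512 (SD, n = 2) for Mir103-1, Mir103-2 and Mir107. By reads that fit 1 place, nearly all of the first share came from Mir322, with 394957 and 403076 counts (82265 ± 8376 CPM). Both shares count reads that fit 1 place, from either arm of a hairpin, so they are not levels of the seeds. Full-length miR-103-3p reads fit both mir-103 genes and entered neither share. Any read that Mir16-1 and Mir16-2 share was likewise left out of the first share, and how many there were is not known. The part of Mir322 is therefore not that of miR-322 among the strands with this seed. The list of superfamily genes is not the same set: it holds Mir503 and the mir-103 and mir-107 genes, which lack this seed, and leaves out Mir6342, Mir6353 and Mir6419, which carry it and had 0 counts. Of 13 superfamily names listed, 11 had a row, 10 had a count and 9 reached 10 CPM in both libraries. Those without a row were Mir497 and Mir424, the latter a name for the homologue of mouse Mir322, already listed. Mir503 stood at 2901 ± 77.4 CPM, Mir15a at 2152 ± 36.3 CPM, Mir16-1 at 1743 ± 160.4 CPM and Mir15b at 840.2 ± 18.6 CPM. Mir16-2 followed at 358 ± 54.9 CPM and Mir195a at 306 ± 19.6 CPM, and Mir195b had 0 counts. Mir107 stood just below Mir15a by mean, with 9526 counts against 9525 in replicate 1 and 10752 against 11500 in replicate 2. Mir497 had no row of its own, and 1770 and 2122 reads lay opposite to Mir497b, where it is annotated, at 399 ± 4.73 CPM; this gene was added after its values were seen.

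**Figure D4:**
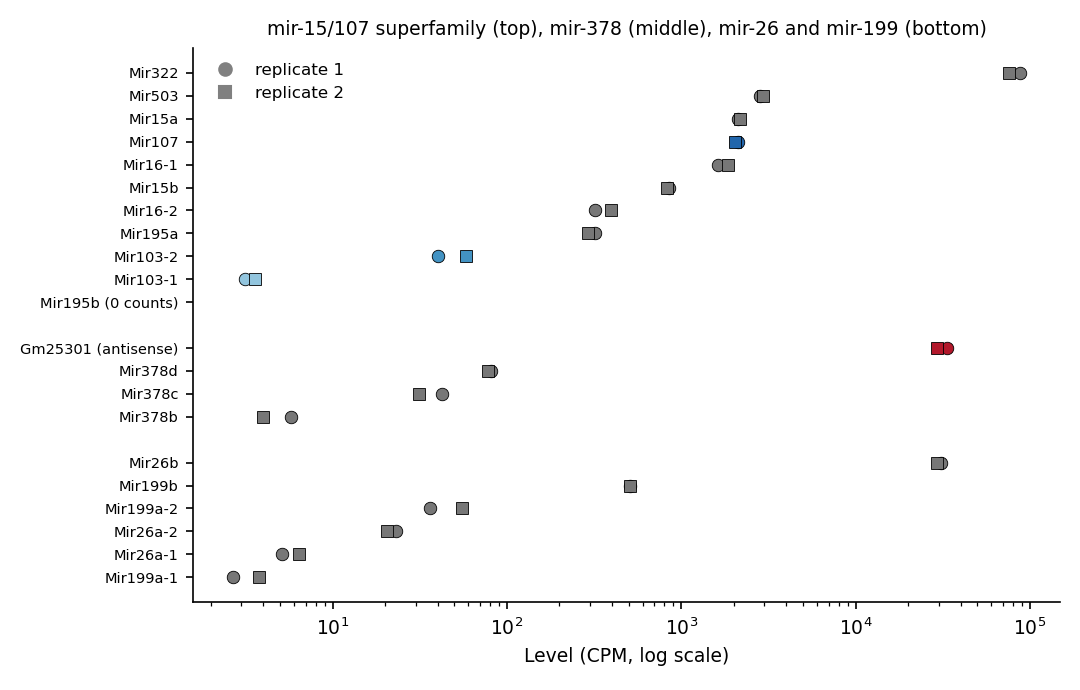
Levels in CPM (x axis, log scale) in replicate 1 (circles) and replicate 2 (squares) are shown for the superfamily of mir-15, mir-103 and mir-107, the mir-378 genes with Gm25301 by antisense counts, and the mir-26 and mir-199 genes, with the genes described here in colour. Mir107 at 2082 CPM lies beside Mir15a at 2152 CPM, while Mir103-2 and Mir103-1 lie with Mir199a-2 and Mir199a-1 at the low end.

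MicroRNAs linked to the same pathways were read from 2 lists, which include genes described above. Mir33 is in the cholesterol list, and Mir107, Mir103-2 and Mir103-1 are in the insulin list. Over all genes, 14.4% reached 10 CPM in both libraries. Of 17 genes linked to cholesterol and lipid export, all with a row, 16 reached 10 CPM in both libraries and together they took 5.04% ± 0.0434 (SD, n = 2) of the counts. The highest 3 were Mir26b, Mir93 at 7248 ± 718 CPM and Mir106b at 4577 ± 153 CPM, the last 2 from 1 cluster. By reads that fit 1 place, Mir33 was near the low end, and the list's median was 148 CPM. Below Mir33 stood Mir758 (24.7 ± 2.35 CPM), Mir26a-2, Mir128-2 and Mir26a-1, of which all but Mir758 are numbered copies. Of 19 genes linked to insulin and glucose with a row, 8 reached 10 CPM in both libraries, Mir107 and Mir103-2 among them. The highest 3 were Mir143 at 88442 ± 1103 CPM, Mir107 itself, and Mir29a at 289 ± 8.21 CPM. The pancreatic islet microRNA Mir375 had 132 and 257 counts, at 29.5 and 48.7 CPM. Both lists hold numbered copies. Those of mir-26a and mir-128 are in the cholesterol list, and those of mir-29b, mir-7, mir-9, mir-124a and mir-103 in the insulin list. Any read that copies share was added to no gene, so a low count of a copy does not show a low level of its mature strand. The lists include microRNAs named for other tissues, and a gene's place in a list does not show that it acts on that pathway here.

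The 2 libraries were compared gene by gene. By exact binomial tests of each gene's 2 counts, adjusted over 713 genes with the Benjamini-Hochberg method, 3 genes (0.421%) passed an adjusted p of 0.05 with at least a 2-fold ratio, and 0 of the 5 did. With so few genes called, that count says nothing particular about the 5. Without a minimum ratio 120 genes (16.8%) passed, and 3 of the 5 did. The test holds counting error alone and sets 1 library against the other, so a pass does not reach past the spread of replicates. Deeply counted genes pass it at small ratios.

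Among those that passed, Mir103-2 had a ratio of replicate 2 over replicate 1 of 1.44 (95% counting interval 1.19 to 1.74), a log2 ratio of 0.52, with an adjusted p of 0.00072 in the exact binomial test. The mir-378a locus had a ratio of 0.872 (0.866 to 0.879), a log2 ratio of −0.20, with an adjusted p of 5.33e-309 in the same exact test. Mir107 had a ratio of 0.957 (0.931 to 0.984), a log2 ratio of −0.06, with an adjusted p of 0.0135 in the exact test. Mir33 and Mir103-1 did not pass: Mir33 had a ratio of 1.11 (0.901 to 1.36) and Mir103-1 one of 1.15 (0.547 to 2.48). Over the 445 genes counted at least 10 times, the median absolute log2 ratio was 0.20, and it was also 0.20 over the 5 genes. A smaller one than that of Mir103-2 was seen in 81.8% of them, and a smaller one than that of the mir-378a locus in 49.9%. The edgeR exact test with a common dispersion, estimated by treating the 2 libraries as replicates (biological coefficient of variation 0.122) called 2 genes and 0 of the 5.

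Some markers of other cells moved between the same libraries. The summed liver list fell from 0.0310% to 0.0162% of the counts, by Mir122 with 809 and 171 counts, while the other 3 of its 4 markers lay within 1.5-fold. The erythroid list went from 0.0986% to 0.186%, by Mir451a with 3447 and 8825 counts, while the other 2 of its 3 markers were lower in CPM in replicate 2. Their part in the ratios of the 5 genes was not tested. In whole tissue, fewer cells of a type and less RNA per cell cannot be told apart.

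**Figure D5:**
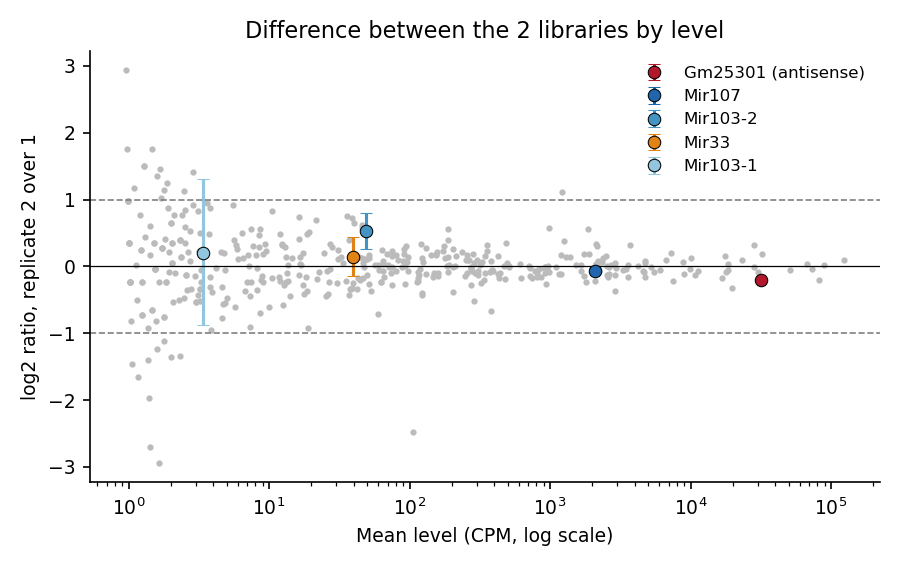
The log2 ratio of replicate 2 over replicate 1 (y axis) is plotted against mean level in CPM (x axis, log scale) for genes with at least 10 counts in total and a count in both libraries, grey points, with dashed lines at 2-fold. The 5 genes are coloured with 95% counting intervals, and all 5 ratios lie between the dashed lines, from −0.20 for Gm25301 by antisense counts to 0.52 for Mir103-2.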

How the data were processed

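Each library has 1 deposited table of unnormalized read counts for annotated microRNA genes, on assembly mm10 with annotation M4, per the labels and the deposited descriptions. Which aligner and counting tool made them is not stated in the labels used here. The 3 unnamed columns were read, from their values, as counts without regard to strand, sense and antisense. The 4 rows that name no gene were kept out of totals: reads fitting several places (27.1% in replicate 1, 25.3% in replicate 2), reads left unmapped (18.1% and 19.1%), reads at no gene of their own strand (6.29% and 5.88%, which include the antisense counts) and ambiguous reads (0).

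Symbols and coordinates were taken from the GENCODE M21 annotation of GRCm38, which is mm10, and 1894 of 1973 identifiers matched. CPM used the sum of sense counts, and a pseudocount of 1 entered only distances on the log2 scale. The 2 counts of each gene were compared by the exact binomial test with Benjamini-Hochberg adjustment. It was checked on simulated counts that held counting error alone, as the test assumes, so the check does not cover spread between replicates. Alternatives used TMM from edgeR 4.0.16, DESeq2 1.42.0 size factors in R 4.3.3, other denominators, filters and strand columns, and each library alone. Other steps used Python 3.11.15, numpy 2.4.6, pandas 2.3.3, scipy 1.17.1 and matplotlib 3.10.9. With 1 group, no quasi-likelihood contrast could be fitted. Named genes were the 5 members, the 2 nearest levels to each, the related families in full, the top 3 of the 2 pathway lists, and the cell type markers. Members and lists were chosen with earlier results of these data known. No genome sequence was used.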

Additional observations from a re-analysis of the deposited data

Results flagged for a closer look

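Reads outside the counts of the 5 genes stood above the limit that a count of 0 allows. Reads fitting several places were 26.2% of all reads as a mean of the 2 libraries (27.1% and 25.3%), and they include any read that mir-103 hairpins share. Antisense counts at genes other than Gm25301 came to 1.44% of the sense counts (1.48% and 1.39%). None of these lay at Mir107, Mir103-1, Mir103-2 or Mir33, which had 0 antisense counts in both libraries.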

How the results depend on the processing

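Over 27 results, other denominators, scalings, filters and tests gave 55 alternative values. Of these, 40 stayed within the replicate SD, kept their direction, or as counts stayed within 1.5 times, 15 moved and 0 reversed. With all reads as the denominator, which raises the divisor by construction, levels were 15478 CPM for Gm25301 (antisense), 1023 for Mir107, 24.3 for Mir103-2, 19.3 for Mir33 and 1.65 for Mir103-1, and the shares were 1.65% for the 5 genes, 0.107% for the 4 read by sense counts and 0.105% for the 3 pantothenate kinase hairpins. With sense plus antisense counts as the denominator, Mir107 stood at 1990.2 CPM and the last 2 shares at 0.208% and 0.204%. TMM and DESeq2 scaling moved no level or direction beyond these bounds. A minimum of 50 CPM left 1 mir-378 gene, 3 genes of duplicated hairpins and 4 of the insulin and glucose list. Without a minimum ratio 120 genes were called between the libraries, against 3. Either library alone gave values within 1.25-fold of the mean, but with 2 libraries a level, ratio or share from 1 of them cannot leave the SD, so this is no sign of stability. Nor are the 16 values with strand ignored, since the members had reads on 1 strand only. No paired analysis was possible because there is 1 group. Counting depth limits Mir103-1 most, with 14 and 19 counts.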
